A study of Mus musculus with 3 samples.

Results

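A set of 10 enzyme genes that dispose of arginine, tryptophan and cis-aconitate was followed in bone marrow-derived dendritic cells (BMDC) of the mouse. They are Arg1, Arg2, Nos2, Ass1, Asl, Odc1, Oat, Ido1, Ido2 and Acod1, chosen by name. A gene was measured by a probe set that names it alone in the platform annotation, and where several did, by the one with the highest mean. On this rule 9 of the 10 genes were measured, out of 19938 genes in all. The exception was Ass1, whose 2 probe sets also name the pseudogene Gm5424. Marrow cells of C57BL/6J mice were grown for 9 days with 20 ng/ml GM-CSF plus 20 ng/ml IL-4 in wells of 2000000 cells, and total RNA of 3 samples was hybridised to 1 Affymetrix whole-transcript array each. All 3 samples form 1 group with the same strain, cytokines and time, and no age, sex or second condition is named in the labels. Whether they came from separate mice or cultures is not stated, so the spread between them may be technical. No test between groups was possible, and none was made.

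These enzymes sit at branch points where myeloid cells shape their surroundings. Arginase splits arginine into ornithine and urea, whereas nitric oxide synthase turns the same arginine into nitric oxide and citrulline. Ornithine then feeds polyamines through ornithine decarboxylase, or proline and glutamate through ornithine aminotransferase. The indoleamine dioxygenases open the ring of tryptophan and start the kynurenine pathway, and aconitate decarboxylase makes itaconate from a tricarboxylic acid cycle intermediate. IL-4 is a textbook inducer of Arg1 through the transcription factor STAT6. Interferon gamma and microbial products are textbook inducers of Nos2, Ido1 and Acod1.

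Arg1, Nos2 and Acod1 gave bright signals together on every array, while Arg2, Ido1 and Ido2 lay at the edge of detection. Values are log2 expression after RMA, the authors' normalization. A gene was taken as above background where its value on all 3 arrays passed the 95th percentile for 1205 probe sets for olfactory and vomeronasal receptors, which was 5.54, 5.54 and 5.55 in replicates 1, 2 and 3. By this limit 7 of the 9 measured enzyme genes were above background, against 60.5% of all genes. At the 99th percentile, near 6.3 log2 units, 6 of the 9 were above it, against 46.2% of all genes. The median level of the 9 was 7.86, and that of all genes 6.12. Probe sets bind with different strength, so these medians describe the brightness of probe sets only, and levels of different genes are not ranked against each other here.

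**Figure D1:**
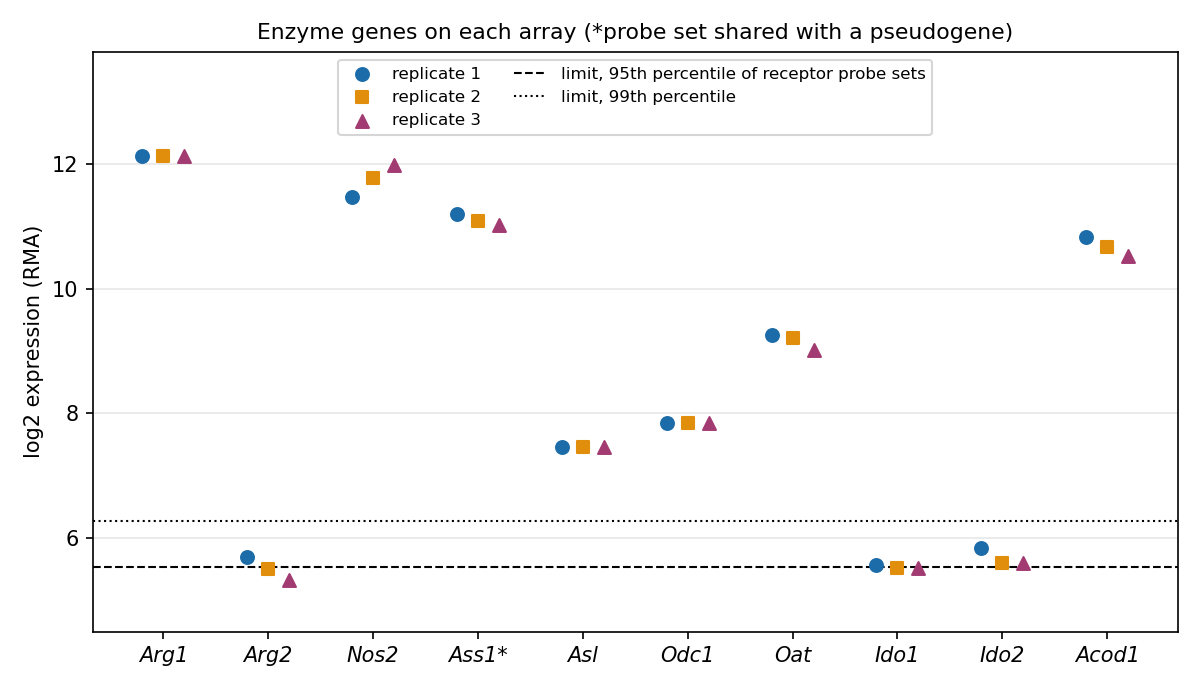
Log2 expression of the 10 enzyme genes (y axis) on each of the 3 arrays, 1 point per array, with the mean background limits as lines. The starred Ass1 probe set is shared with the pseudogene Gm5424. Arg2, Ido1 and Ido2 sit between 5.33 and 5.84, beside the lower limit, and the other 7 genes sit at 7.46 or above.

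Of the enzymes that compete for arginine, Arg1 and Nos2 were both far above the limit. Arg1 encodes the cytosolic arginase of liver and of IL-4 stimulated macrophages, and its value was 12.12 on each array, 6.57 or more log2 units above the limit. Nos2, the inducible nitric oxide synthase, had 11.47, 11.77 and 11.97 in replicates 1, 2 and 3, a mean of 11.74 ± 0.25 (SD, n = 3). Its lowest value was 5.94 log2 units above the limit. The arrays measured pooled RNA of many cells, so they do not show whether the same cells carried both transcripts. In such bulk samples, fewer cells of a type and less RNA per cell cannot be told apart.

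Arg2, the mitochondrial arginase, passed the limit on 1 of 3 arrays. It had 5.70, 5.51 and 5.33 in replicates 1, 2 and 3, which put it 0.16 above the limit in replicate 1 and 0.22 below it in replicate 3. No array reached the stricter limit for Arg2.

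The genes that rebuild arginine from citrulline were both seen, 1 of them through a shared probe set. Asl, argininosuccinate lyase, had 7.46 on each array. For Ass1, argininosuccinate synthase, the brighter shared probe set had 11.20, 11.08 and 11.03 and the other 11.19, 11.07 and 11.03. The share of Gm5424 in these signals was not tested. Both probe sets placed the arrays in the same order, with a range of 0.18 and 0.17 log2 units. They name the same pair of genes, so the shared order is not an independent check.

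Both fates of ornithine were represented. Odc1, ornithine decarboxylase and the first step to polyamines, had 7.86 on each array, and its second probe set had 7.61 on each. Oat, the mitochondrial ornithine aminotransferase, had 9.26, 9.22 and 9.01 in replicates 1, 2 and 3, a mean of 9.16 ± 0.13 (SD, n = 3). Replicates 1 and 2 lay close together and replicate 3 was the lowest.

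The tryptophan dioxygenases Ido1 and Ido2, which are neighbours in the RefSeq gene table, were not clearly above background. Ido1 had 5.57, 5.53 and 5.53, within 0.03 log2 units of the limit on every array and above it only in replicate 1. Ido2, the paralogue with weaker activity on tryptophan, had 5.84, 5.61 and 5.61. It passed on all 3 arrays, by 0.30, 0.07 and 0.05, and is the member that brings the count to 7. At the 99th percentile neither gene passed on any array. When the 1359 receptor probe sets that include those naming several receptors set the limit, Ido2 passed on 1 array only.

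Acod1, older symbol Irg1, which makes itaconate, had 10.83, 10.67 and 10.53 in replicates 1, 2 and 3, a mean of 10.68 ± 0.15 (SD, n = 3). Every array was at least 4.97 log2 units above the limit. Replicate 1 was highest and replicate 3 lowest.

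The arrays differed by less than 1.5-fold for every measured member. Among genes above background, 1.9% had a range over the 3 arrays of more than 1.5-fold, and 0 of the 7 enzyme genes did. Nos2 came nearest, with replicate 3 above replicate 1 by 0.50 log2 units, or 1.42-fold. A range at least as large was found in 2.58% of the genes above background. Acod1 followed with 0.30 log2 units, 1.23-fold, a range reached by 6.3%. At a threshold of 0.3 log2 units Nos2 and Acod1 passed, 2 of 7, against 6.41% of genes above background. Arg1, Asl and Odc1 were identical on the 3 arrays to the last digit, 3 of 7, as were 46.5% of genes above background. An SD of 0 in these deposited values is no measure of precision.

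Nos2 and the other varying members took opposite orders. Acod1, Oat and Arg2 were highest in replicate 1 and lowest in replicate 3, as were both shared probe sets of Ass1. Among genes above background that were not identical, 19.1% had this order. Nos2 was lowest in replicate 1 and highest in replicate 3, an order found in 15.4%. Ido1 and Ido2 were highest in replicate 1 and equal in replicates 2 and 3. With 1 array per sample, none of these differences has a replicate check.

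**Figure D2:**
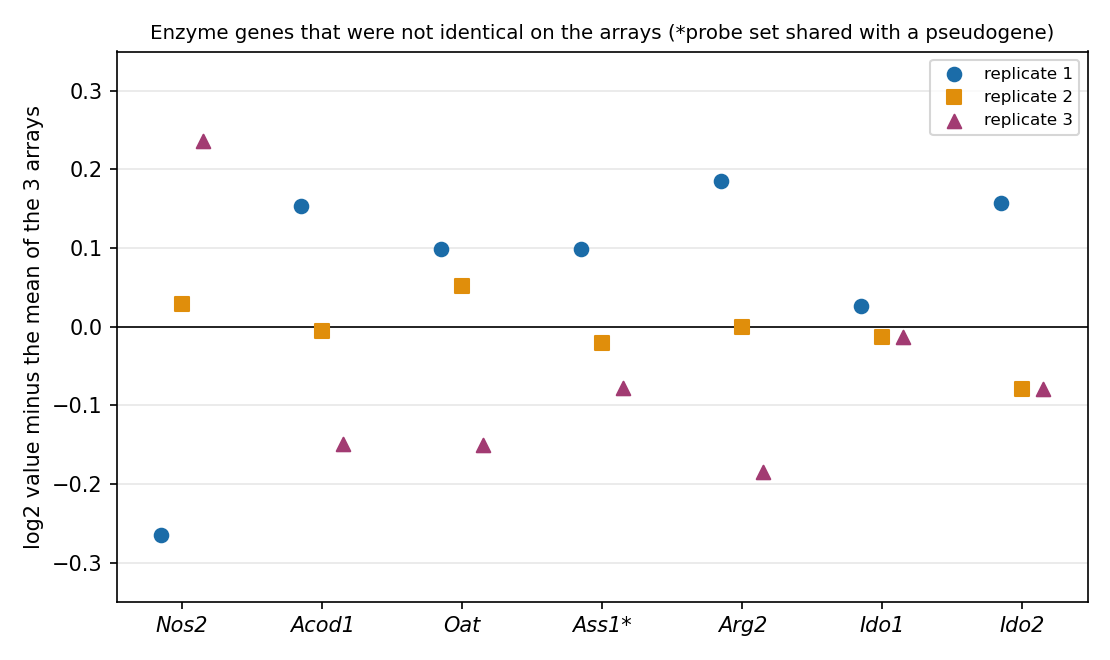
Log2 value of each array minus the mean of the 3 arrays (y axis) for the enzyme genes that were not identical on the arrays, 1 point per array. Nos2 runs from -0.26 in replicate 1 to 0.24 in replicate 3, and Acod1, Oat, Ass1 and Arg2 are highest in replicate 1 and lowest in replicate 3.

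In all, 3 genes above background came closest to the profile of Nos2 by Euclidean distance of their deviations over the 3 arrays. Pfkfb3, which encodes an activator of glycolysis, had 7.85, 8.15 and 8.36 (distance 0.0052). Vaultrc5, a small RNA of the vault particle, had 10.31, 10.58 and 10.82 (distance 0.023). Clec4d, a C-type lectin receptor, had 8.90, 9.16 and 9.41 (distance 0.031). With 3 arrays, closeness of this kind is easily met and is only a description.

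Gene programs that differed between the arrays in the same orders are given beside these results. Of a low oxygen list, 9 of 10 genes were above background, and all 8 that were not identical were lowest in replicate 1 and highest in replicate 3, as Nos2 was. Its mean deviation was -0.23, 0.02 and 0.21. The opposite order was seen in T cell and NK cell markers (9 of 10 above background, deviations of 0.43, 0.11 and -0.54) and in genes of dividing cells (9 of 9, 0.40, 0.09 and -0.50). It was also seen on average in genes of the ATF4 and unfolded protein response (10 of 10, 0.20, 0.03 and -0.23). Of the 9 of these that were not identical, 7 were lowest in replicate 3. Macrophage markers had smaller mean deviations (7 of 9 above background, 0.08, -0.01 and -0.08) and were mixed. Of the 7, 5 were highest in replicate 1 and 3 lowest in replicate 3, while Mertk and Cd68 were highest in replicate 3. The log2 of their list's summed signal was 13.57, 13.51 and 13.45. The log2 of the summed T cell and NK cell signal was 12.70, 12.31 and 11.54, with Ncr1 below background at 4.23. The log2 of the summed signal of 10 neutrophil markers was 10.42, 10.17 and 9.80, of which 5 were above background on all arrays. Mast cell and basophil markers (3 of 8, deviations of 0.22, 0.39 and -0.62) were lowest in replicate 3 as well. The log2 of their summed signal was 9.53, 9.73 and 8.49, with Kit below background at 5.22. For the eosinophil markers (1 of 5), the log2 of the summed signal was 9.23, 9.14 and 8.85. Siglecf had 8.93, 8.81 and 8.48, and Epx and Prg2 were below background. A haemoglobin probe set shared by Hba-a1 and Hba-a2 had 8.98, 8.30 and 7.81. The part of these programs and cell types in the values of Nos2, Acod1, Oat and Arg2 was not tested.

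The promoters of Acod1, Oat and Ass1 are shown because their signals shared an order over the arrays. RefSeq promoter windows of build GRCm38.p6 were matched for 4 of the 10 genes, these and Odc1. Arg1, Arg2, Nos2, Asl, Ido1 and Ido2 had no entry. The 250 bases before the start are printed, and capitals mark matches to the motifs named after them.
Acod1, chr14:103046762-103047011, plus strand: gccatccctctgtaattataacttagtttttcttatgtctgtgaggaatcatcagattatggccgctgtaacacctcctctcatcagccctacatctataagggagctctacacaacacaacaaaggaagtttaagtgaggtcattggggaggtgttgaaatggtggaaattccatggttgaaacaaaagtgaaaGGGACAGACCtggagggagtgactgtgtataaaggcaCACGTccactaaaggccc
Oat, chr7:132576399-132576648, minus strand: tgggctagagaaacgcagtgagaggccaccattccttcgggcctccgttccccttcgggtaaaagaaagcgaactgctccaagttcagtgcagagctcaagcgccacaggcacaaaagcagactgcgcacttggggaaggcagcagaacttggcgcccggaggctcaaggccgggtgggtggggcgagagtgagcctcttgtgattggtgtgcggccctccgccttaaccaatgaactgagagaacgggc
Ass1, chr2:31470020-31470269, plus strand: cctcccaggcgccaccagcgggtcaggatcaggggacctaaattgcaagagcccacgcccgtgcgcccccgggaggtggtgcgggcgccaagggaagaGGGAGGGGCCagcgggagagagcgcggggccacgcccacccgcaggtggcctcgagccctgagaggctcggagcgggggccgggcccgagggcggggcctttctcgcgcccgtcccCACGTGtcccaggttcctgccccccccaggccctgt

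Few of the motifs searched were in these windows of 300 bases, which add the 50 bases after the start. Both strands were searched. The NF-kB pattern (GGGA and CC around 4 free bases) was found in Acod1 as GGGACAGACC, from position -55 relative to the start, and in Ass1 from position -152, and 20.7% of all 32851 windows held it. The hypoxia core ACGTG was found in Acod1, Ass1 and Oat, in Oat from position 15 after the start and so outside the printed part, and in 19.6% of windows. In Ass1 it lies within the E-box CACGTG, which 7.15% of windows held. The STAT6 pattern (TTC and GAA around 4 free bases, 6.95% of windows), the STAT pattern TTCNNNGAA (8.3%), the IRF pattern (GAAA on both sides of 2 free bases, 3.44%) and the ATF4 and CEBP pattern TGATGNAA (3.97%) were in none of the 4 windows. The Odc1 window held no match to any of the 7 patterns. A match is a run of letters and no measured binding site.

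Genes of the connected pathways were mostly above background. The 10 lists with 133 different genes cover transport, neighbouring steps, targets and regulators, and 100 of the 120 measured genes were above background, against 60.5% of all genes. Their median level was 8.35 and their median range over the arrays 0.02 log2 units. Of the 64 that were above background and not identical, 30 were lowest in replicate 3, where the share of all such genes was 37.8%, and 17 were highest there, against 36.2%.

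**Figure D3:**
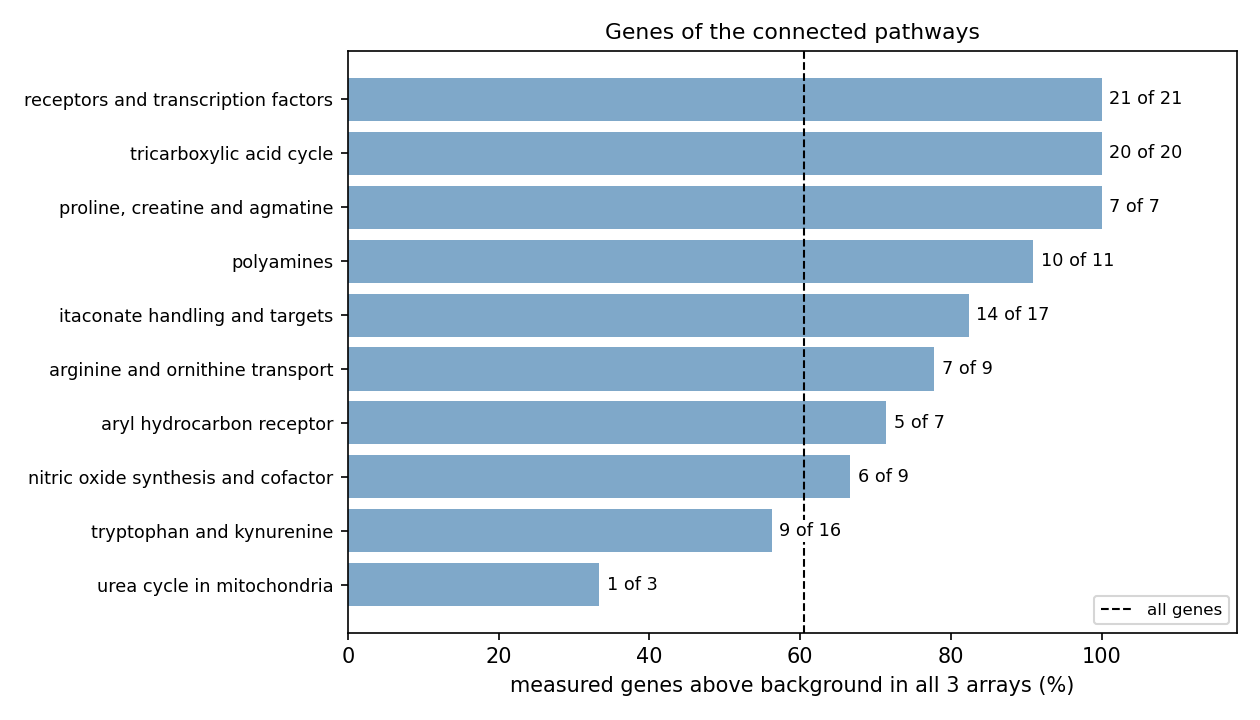
Percent of the measured genes of each pathway list above background on all 3 arrays (x axis), with counts beside the bars and the 60.5% of all genes as a dashed line. The tricarboxylic acid cycle, the regulators and the proline, creatine and agmatine list were complete at 100%, and the urea cycle steps of the mitochondrion had 1 of 3.

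Arginine entry was covered by several carriers. Of the transport list 7 of 9 were above background (77.8%), against 60.5% of all genes. Slc7a2, a cationic amino acid carrier of activated macrophages, had 11.80, 11.81 and 11.96, and Slc3a2, the partner chain of several carriers, had 11.78, 11.72 and 11.69. Slc7a7, a light chain that exchanges arginine for neutral amino acids, had 8.24, 8.16 and 8.09. Slc7a1, the constitutive cationic carrier, had 8.17, 7.82 and 7.45, so that replicate 1 was 1.65-fold above replicate 3. Slc7a3 (5.43, 5.36 and 5.28) and the mitochondrial carrier gene Slc25a2 (4.92, 4.92 and 4.84) were below background.

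The mitochondrial urea cycle steps that would make citrulline from ammonia were largely below the limit. Cps1 had 4.97 and Otc 3.10 on each array, while Nags, which makes the activator of the Cps1 enzyme, had 6.70 on each.

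Of the nitric oxide list 6 of 9 were above background (66.7%), near the 60.5% of all genes. Gch1, the first enzyme of the synthase cofactor tetrahydrobiopterin, had 6.41, 6.54 and 6.61, the same order as Nos2. The next enzyme gene Pts had 6.77, 6.77 and 6.60. Nos1 and Nos3, the neuronal and endothelial synthases, lay just above the limit at 5.78 and 5.92 on each array and below the 99th percentile. Gchfr (5.53, 5.53 and 5.54), Ddah1 (5.31 on each) and Ddah2 (5.40 on each) were below background. With the limit from silent tissue genes, 3 of the 9 passed, as did 8667 of all 19938 genes. Gch1 fell below that limit in replicate 1.

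Polyamine genes were above background in 10 of 11 cases (90.9%), against 60.5% of all genes. Srm, spermidine synthase, had 8.73, 8.69 and 8.64, and Sat1, which acetylates polyamines for export, had 11.30, 11.27 and 11.20. Smox, spermine oxidase, had 8.12, 8.27 and 8.35. Eif5a, the protein that carries the spermidine-derived hypusine, had 10.43, 10.24 and 10.41. Only the testis antizyme gene Oaz3 was below background in this list, at 4.52, 4.52 and 4.56.

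All 7 measured genes of proline, creatine and agmatine handling were above background. Aldh18a1, the first enzyme of proline synthesis, had 7.75, 7.36 and 6.98, a range of 1.70-fold. Gamt, the second enzyme of creatine synthesis, had 8.65, 8.61 and 8.20. Aldh4a1, which oxidises the proline breakdown product to glutamate, had 6.71, 6.90 and 6.93, and Pycr3, a pyrroline reductase, had 6.86, 6.86 and 6.75.

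The tryptophan list had 9 of 16 genes above background, a share of 56.3%, below the 60.5% of all genes. Kynu, kynureninase, had 9.88, 9.66 and 9.24, a range of 1.57-fold, and Wars1, the tryptophanyl-tRNA synthetase that interferon induces, had 9.83, 9.92 and 10.04. Slc7a5, the large neutral amino acid carrier that imports tryptophan, had 9.43, 9.01 and 7.63, so that replicate 1 was 3.49-fold above replicate 3. Qprt, a late enzyme on the way to NAD, had 5.90, 5.90 and 5.79.

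Several steps around the dioxygenases were below background. These were Tdo2, the tryptophan dioxygenase of liver (3.22, 3.22 and 3.43), and Kmo, kynurenine monooxygenase (5.20, 5.20 and 5.05). Aadat, a kynurenine aminotransferase, had 3.02, 3.12 and 3.02. Acmsd had 4.28 on each array. The serotonin synthesis genes Tph1 (4.38 on each), Tph2 (3.47 on each) and Ddc (5.22, 5.26 and 5.22) were below it too. Il4i1, an amino acid oxidase gene that IL-4 induces, had only a probe set shared with Il4i1b, at 7.36, 7.52 and 7.32.

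Of the aryl hydrocarbon receptor list, whose receptor binds kynurenine, 5 of 7 were above background (71.4%), against 60.5% of all genes. Ahr, the receptor, had 7.22 on each array to 2 decimals, its partner gene Arnt had 9.08, 9.08 and 9.22, and the target gene Tiparp had 9.66, 9.82 and 10.04. Cyp1b1, another target gene, had 7.46, 6.30 and 5.63, a range of 3.56-fold. The classic targets Cyp1a1 (4.59) and Cyp1a2 (4.23) were below background and identical on the arrays. With receptor probe sets of several genes in the limit, 3 of the 7 passed, and Cyp1b1 was not among them. Of all 19938 genes 11523 passed that limit.

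In all, 5 of the 100 pathway genes above background differed by more than 1.5-fold between arrays. These were Slc7a5, Cyp1b1, Aldh18a1, Slc7a1 and Kynu, and each was highest in replicate 1 and lowest in replicate 3. The background share is the 1.9% given above. Slc7a5 and Cyp1b1 also passed 1 log2 unit, where the share was 0.497%. Without replicate 1 the count was 2 (Slc7a5 and Cyp1b1), and without replicate 3 it was 1 (Cyp1b1). Beside them, Asns, asparagine synthetase and a target of the stress factor ATF4, had 8.88, 8.17 and 7.45. Beside Cyp1b1, the log2 of the summed signal of 9 stromal cell markers was 10.35, 8.82 and 8.89. The markers did not move as a set. Dcn (8.12, 5.36 and 5.41), Sparc, Bgn and Lox fell after replicate 1. The 3 of the 9 above background on all arrays changed little. They were Col1a1 (6.94, 6.69 and 6.76), Col1a2 (6.53, 6.36 and 6.36) and Col3a1 (6.10 on each). T cell and NK cell markers and genes of dividing cells, given above, were also lowest in replicate 3, for example Il2rb (9.81, 9.47 and 8.42), and so were the neutrophil, mast cell and eosinophil sums. The part of any of these in the 5 genes was not tested.

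**Figure D4:**
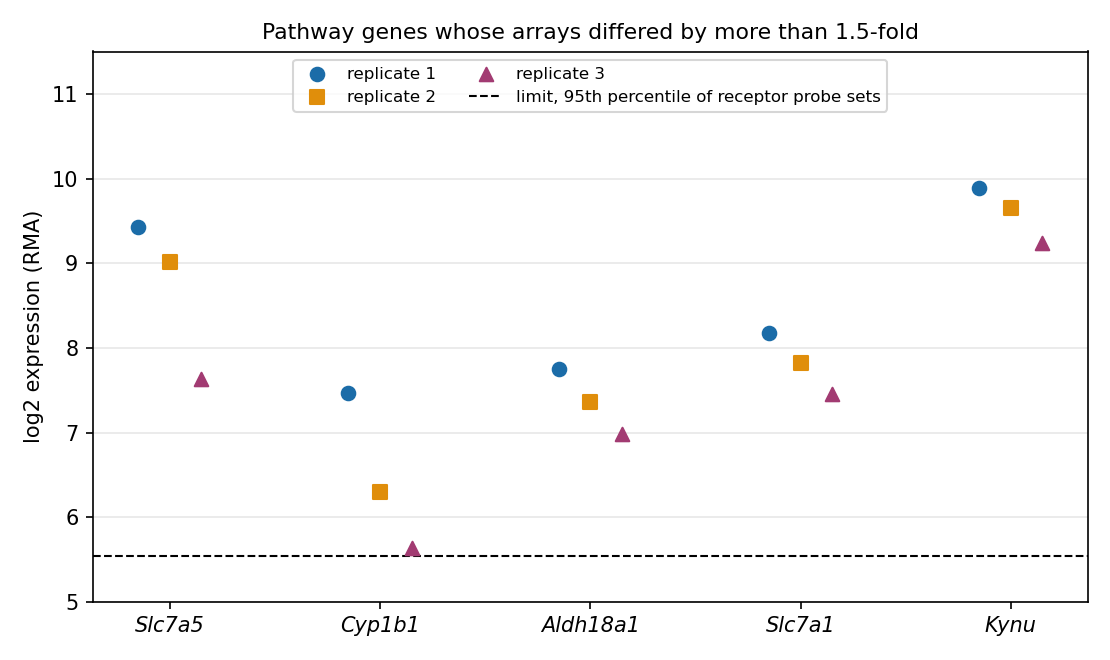
Log2 expression (y axis) of the 5 pathway genes whose 3 arrays differed by more than 1.5-fold, 1 point per array, with the mean background limit dashed. All 5 are highest in replicate 1 and lowest in replicate 3, by 1.80 log2 units for Slc7a5 and 1.83 for Cyp1b1.

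The cycle that supplies Acod1 with its substrate was detected completely, with 20 of 20 measured genes above background and 0 of them past 1.5-fold. The largest ranges were those of Idh3g (10.87, 10.84 and 10.66), a subunit of isocitrate dehydrogenase, and Suclg2 (6.00, 5.86 and 5.86), a subunit of succinyl-CoA synthetase. Sucla2, its counterpart, had 8.20, 8.17 and 8.28, and Idh3a had 8.49, 8.48 and 8.38. Of succinate dehydrogenase, the enzyme that itaconate inhibits, Sdha had 10.33, Sdhb 9.82 and Sdhc 10.56, each identical on the arrays in the deposited values, and these genes were named after their values were seen.

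Genes for handling itaconate and its reported targets were above background in 14 of 17 cases (82.4%), against 60.5% of all genes. Nfe2l2, the antioxidant factor NRF2, had 11.08, 10.98 and 10.82, and its target gene Hmox1, haem oxygenase, had 11.69, 11.89 and 12.03, in the opposite order. Clybl, which acts in itaconate breakdown, had 8.69, 8.69 and 8.48, and Slc25a10, the dicarboxylate carrier, had 8.10, 8.03 and 7.86. Oxgr1, a reported itaconate receptor (3.73 on each), and Sugct, a coenzyme A transferase (4.01 on each), were below background on all arrays. Nfkbiz (5.57, 5.57 and 5.42) passed the limit on 2 arrays and was below it in replicate 3.

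All 21 measured genes of receptors and transcription factors that act on these enzymes were above background. Stat6, which carries the IL-4 signal to Arg1, had 9.67, 9.71 and 9.71, and the receptor gene Il4ra had 9.87, 9.86 and 9.85, both named after their values were seen. Irf1, an interferon-induced activator of Nos2, had 10.33, 10.52 and 10.61, and Irf8 had 10.06, 10.17 and 10.33. Both had the order of Nos2, but of the 18 regulators that were not identical 4 were highest in replicate 3 and 9 lowest there. Myd88, the adaptor of Toll-like receptors, ran the other way with 9.18, 9.10 and 8.94, and Myc, an activator of Odc1, had 9.32, 9.34 and 8.95. None of the 21 passed 1.5-fold.

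The cell type label was checked with markers. Of 10 dendritic cell markers 8 were above background, with Flt3 and Dpp4 below, and of 9 measured macrophage markers 7 were. T cell and NK cell markers passed in 9 of 10 cases. Neutrophil markers passed in 5 of 10 cases and mast cell and basophil markers in 3 of 8. Among those that failed, Ly6g (6.73, 6.80 and 4.86), Lcn2 (7.98, 6.69 and 5.12), Retnlg (7.35, 7.11 and 5.55) and Cpa3 (7.38, 7.54 and 5.38) were above the limit in replicates 1 and 2 and below it in replicate 3. B cell markers passed in 2 of 5 cases, and eosinophil and erythroid markers in 1 of 5 and 1 of 3. Of 47 silent tissue genes 14 (29.8%) passed the same limit, as did 60.5% of all genes. At the stricter limit, passed by 46.2% of all genes, the dendritic cell and macrophage counts stayed at 8 and 7. T cell and NK cell markers then passed in 7 of 10 cases and neutrophil markers in 1 of 10. Mast cell and basophil markers passed it in 2 of 8 cases, eosinophil markers in 1 of 5 and B cell markers in 0 of 5. Passing a limit therefore does not by itself show that a cell type was present.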

How the data were processed

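The deposited values are log2 expression from 3 arrays of BMDC RNA, 150 ng per sample per the labels' protocols. The authors used RMA (background correction, quantile normalization, probe summary), as the submitters' processing notes name it. Software version and build are not given in the sources used here. Array medians were 5.91, 5.91 and 5.91, and genes were not centred. Precision is limited by having only 3 arrays.

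Of 35556 probe sets, 21789 name 1 gene in the platform annotation, 1621 several genes, and 12146 are unlisted there. In 15926 (44.8%) the 3 values are identical. Calls, ranges and counts were computed with Python 3.11.15, numpy 2.4.6 and pandas 2.3.3, and the call script was checked on simulated data. A list gene was matched by symbol, older symbol or RefSeq synonym.

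Named genes are all members, the genes below background and the up to 4 of largest range of each list (up to 4 of each where most were below), and the 3 genes closest to the member of largest range. Exceptions are marked. The Ass1, Il4i1, Asns and marker values stand outside this rule. Members and lists were chosen with earlier results of these data known. Alternatives covered the limit, the call on the mean, the probe set rule, the range threshold, median centring and leaving out each array.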

Additional observations from a re-analysis of the deposited data

How the results depend on the processing

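The count of enzyme genes above background was 7 of 9 and ranged from 6 to 8 over all alternatives. It was 6 under the stricter receptor limit (99th percentile), for a limit from silent tissue genes (6.51 log2 units) and with receptor probe sets of several genes in the limit, an alternative chosen after seeing the data. Ido2 is the gene lost there. It was 8 with probe sets of several genes accepted, which adds Ass1, and 7 on the mean over arrays, on the mean of all probe sets and without replicate 1, 2 or 3. The count of pathway genes above background was 100 and ranged from 87 (limit from silent tissue genes) to 103 (probe sets of several genes accepted), with 100 to 101 when 1 array was left out. The count of members differing between arrays was 0 and became 2 with a threshold of 0.3 log2 units. It was 0 with a threshold of 1 log2 unit, with centred arrays, with the mean of all probe sets and without replicate 1, 2 or 3. Among pathway genes the count of 5 became 2 past 1 log2 unit and 9 past 0.3. Before centring, the array medians over genes above background differed by at most 0.018 log2 units. No paired analysis was possible because the samples form 1 group. Values near the limit, those of Arg2, Ido1 and Ido2, cannot be read as presence or absence of the transcripts.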
